A study of Mus musculus with 7 samples.

Results

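Mt1, Mt2, the zinc exporter Slc30a1, its family member Slc30a10, the zinc importers Slc39a4, Slc39a5 and Slc39a14, and the metal response factor Mtf1 were followed across 7 mouse liver RNA-seq libraries. These 8 genes were taken by symbol from 33887 gene symbols, and each had 1 row in every table. The set was built around Mt1, which had been seen to be low in the 3 libraries of the Myod1 experiment, and asks whether that low level extended to Mt2 and to zinc transport. The genes were thus chosen by the Mt1 FPKM values of the Myod1_active, Myod1_control, SunTag and WT libraries. In the comparisons inside and across that experiment Mt1 is therefore given as a description with no test. Between SunTag and WT it is described and left out of the counts. The other members were proposed with results of these libraries already known, so their counts are read against those of all genes. All 8 genes passed the filter of the test, an FPKM (fragments per kilobase of transcript, scaled to the mapped fragments of the library) of at least 1 in at least 1 library, along with 15744 genes in all. Slc39a5, the lowest, passed through the SunTag and WT libraries, so its place among the genes tested already rests on the groups where it was higher.

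All libraries came from liver of C57BL/6 mice. The groups were 1 library with Myod1 activated in SunTag-dCas9 mice (Myod1_active), 2 controls of that activation, also SunTag-dCas9 mice (Myod1_control), 2 libraries of SunTag-dCas9 mice with no Myod1 treatment in their labels (SunTag), and 2 of wild-type mice (WT). SunTag-dCas9 pairs a DNA-binding Cas9 that cannot cut with a peptide array onto which effector proteins are loaded. The sources used here do not give the way Myod1 was activated, what the controls received, the promoter of the transgenes, or the age and sex of the mice. Myod1 itself had 3.52 FPKM in the Myod1_active library and was listed at 0 in the other 6 libraries. Each library held between 13133 and 13974 genes at 1 FPKM or more. The labels do not say whether replicates are different animals; p-values therefore cover the spread between these libraries alone, and that spread may be technical.

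Metallothioneins are small cysteine-rich proteins that hold zinc and copper in the cytosol, and liver is a main site of their synthesis. When cellular zinc rises, Mtf1 binds metal response elements in their promoters and switches the genes on; glucocorticoids and inflammation also raise them in liver. Zinc itself is moved by transporters of the Slc30 family, which carry it out of the cytosol, and of the Slc39 family, which carry it in.

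The promoters of Mt1, Mt2 and Slc30a1 are shown because Mt1 and Mt2 shared a pattern across the libraries and Slc30a1, another known target of Mtf1, had the opposite one. Sequences are from RefSeq on the GRCm38.p6 build, from 250 bases before the transcription start to 50 after it. They lie at chr8:94178839-94179138 for Mt1, chr8:94172368-94172667 for Mt2 and chr1:191906531-191906830 for Slc30a1, each on the plus strand. Capitals mark the core of the metal response element, searched as TGCACNC and TGCGCNC on both strands, where N is any base.
Mt1: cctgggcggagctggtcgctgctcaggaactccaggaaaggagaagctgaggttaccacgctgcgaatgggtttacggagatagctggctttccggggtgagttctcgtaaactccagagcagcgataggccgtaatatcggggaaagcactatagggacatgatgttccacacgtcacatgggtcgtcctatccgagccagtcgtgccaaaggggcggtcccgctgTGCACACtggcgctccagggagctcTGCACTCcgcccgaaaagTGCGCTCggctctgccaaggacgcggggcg
Mt2: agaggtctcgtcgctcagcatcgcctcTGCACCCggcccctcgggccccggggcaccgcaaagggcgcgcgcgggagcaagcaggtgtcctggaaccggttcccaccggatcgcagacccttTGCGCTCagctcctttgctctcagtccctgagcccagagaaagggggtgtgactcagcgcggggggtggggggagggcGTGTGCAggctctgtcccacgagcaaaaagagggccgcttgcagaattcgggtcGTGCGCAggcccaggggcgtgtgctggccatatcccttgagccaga
Slc30a1: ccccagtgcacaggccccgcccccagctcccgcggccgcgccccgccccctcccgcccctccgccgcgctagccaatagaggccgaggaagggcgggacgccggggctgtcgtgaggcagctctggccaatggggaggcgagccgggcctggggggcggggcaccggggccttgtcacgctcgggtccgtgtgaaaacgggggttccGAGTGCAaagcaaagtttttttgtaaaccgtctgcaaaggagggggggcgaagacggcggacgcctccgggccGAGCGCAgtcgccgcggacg
The Mt1 window held 3 matches, the Mt2 window 4 and the Slc30a1 window 2, with no overlap between matches. The Mt1 matches began at positions -23, 3 and 21 from the start, and the Mt2 matches at -223, -128, -50 and 5. These positions and counts hold only for the 1 start listed for each of the 3 genes. The GENCODE M21 annotation has 3 transcripts of Mt1, and windows at other starts, or beyond 50 bases after this one, were not searched. Among 32851 promoters of the same length, 25.7% held at least 1 match, 7.11% at least 2, 1.97% at least 3 and 0.517% at least 4. Of the other genes of the set with a promoter in that table, Slc30a10 held 3 matches, of which 2 overlapped, the 2 starts of Slc39a5 held 1 and 0, and Mtf1 held 0. A match to so short a core is a description of the letters and not a binding site.

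Mt1 (ENSMUSG00000031765) lies at 96702989 to 96704225 on chromosome 8 in mm9, the build of the files. Its level was 30.5 FPKM in the Myod1_active library, 6.53 and 11.9 FPKM in the Myod1_control libraries, 956 and 994 FPKM in the SunTag libraries, and 599.7 and 323 FPKM in the WT libraries. The 4 groups did not overlap: SunTag was highest, then WT, then Myod1_active, then Myod1_control. The lowest SunTag or WT library, WT replicate 2, was 10.6 times the highest library of the Myod1 experiment. The means were 9.22 ± 3.81 FPKM in Myod1_control and 975 ± 26.6 FPKM in SunTag (SD, n = 2 each), 106 times higher in SunTag. Among all genes of a library Mt1 ranked 2980th in Myod1_active, 7259th and 5021st in Myod1_control, 150th and 144th in SunTag, and 213th and 388th in WT. In every library the Mt1 value lay within its own deposited interval, which was 27.4 to 33.7 FPKM in Myod1_active, 5.07 to 7.98 and 9.84 to 14.0 FPKM in Myod1_control, and 310 to 338 FPKM in WT replicate 2, the lowest of the other 4.

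**Figure D1:**
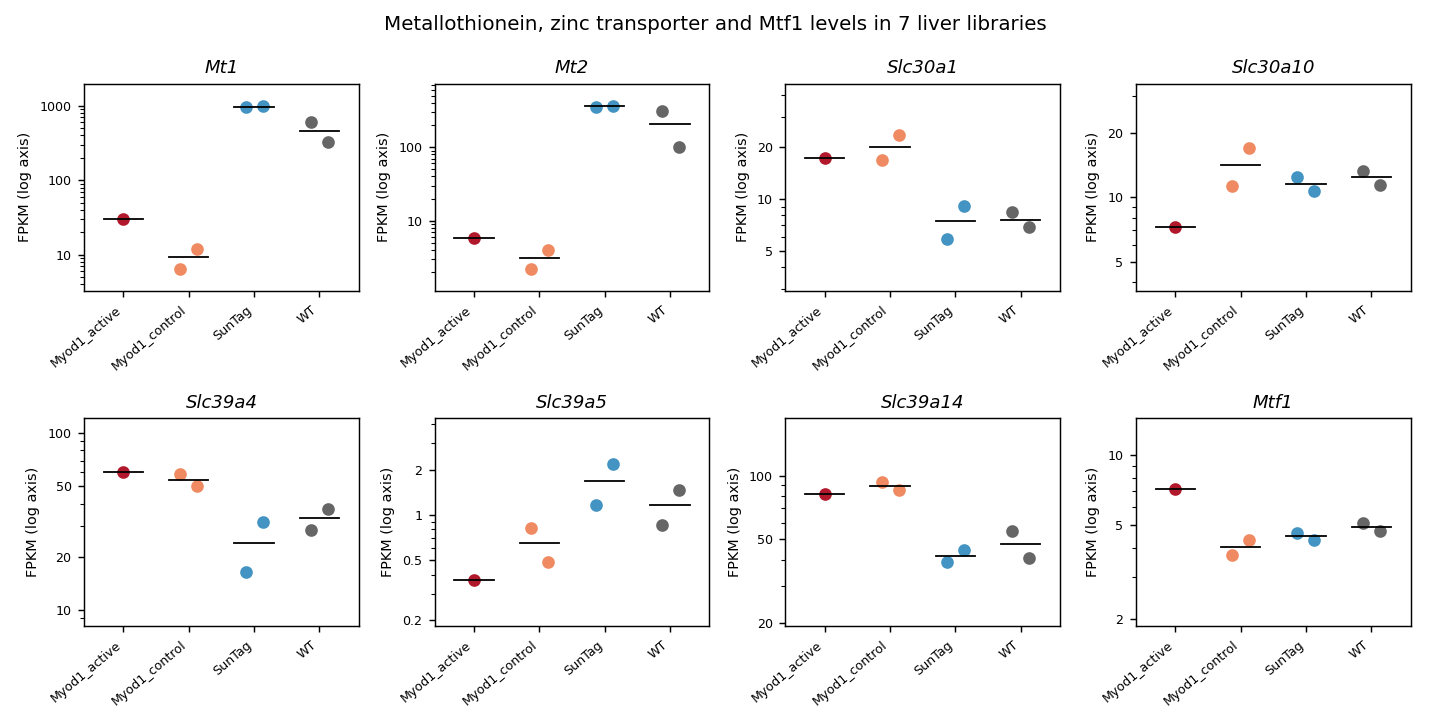
FPKM of the 8 genes in each library, 1 panel per gene, with a log vertical axis whose range differs between panels; points are libraries and black lines are group means. Mt1 and Mt2 lie far lower in the Myod1_active and Myod1_control libraries than in the SunTag and WT libraries, while Slc30a1, Slc39a4 and Slc39a14 lie higher there.

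Mt2 (ENSMUSG00000031762), the second metallothionein of liver, lies 5521 bp from Mt1, at 96696518 to 96697467 on chromosome 8. It had 5.91 FPKM in Myod1_active, 2.22 and 3.97 FPKM in Myod1_control, 352 and 365 FPKM in SunTag, and 308 and 101 FPKM in WT. The order of the groups was that of Mt1, again with no overlap between them. In Myod1_control Mt2 fell to 3.10 ± 1.24 FPKM, against 359 ± 8.74 FPKM in SunTag (SD, n = 2 each), 116 times higher in SunTag. On the log2(FPKM + 1) scale, where low values are understated, the difference was -6.49 (SE 0.556; limma adjusted p = 0.0139), and -6.35 relative to the median gene, which shifted by -0.14 in this comparison. The call held without either SunTag or WT library, at adjusted p = 0.0212 to 0.0489, and was lost without Myod1_control replicate 1 (0.0759) or replicate 2 (0.0717). In 6 of 7 libraries the Mt2 value lay above its own deposited interval, by up to 1.49 times its upper bound, so its absolute level is less certain than that of Mt1.

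The ratio of Mt1 to Mt2 lay between 1.95 and 5.16, a narrower range than that of either level. Mt1 was 5.16 times Mt2 in Myod1_active, 2.94 and 3.001 times in Myod1_control, 2.71 and 2.72 times in SunTag, and 1.95 and 3.18 times in WT. The Myod1_active library had the highest ratio, and the WT libraries spanned the Myod1_control and SunTag values. Transcripts of the 2 genes share no identical run longer than 20 nt in the GENCODE M21 annotation. The remaining metallothioneins contributed little: Mt3, best known from brain, was at 0 in 5 libraries, 0.241 FPKM in Myod1_control replicate 2 and 0.0790 FPKM in WT replicate 2, and Mt4, known from stratified epithelium, was listed at 0 in all 7.

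The other expressed genes beside Mt1 and Mt2 showed no difference of that size. Within 100 kb of the pair, a window chosen after the values were seen, the tables held 4 further genes: Mt3, Mt4, Bbs2, a component of the BBSome of cilia, and Nup93, a nuclear pore protein. Bbs2 was at 0.652 FPKM in Myod1_active, 1.39 and 1.37 FPKM in Myod1_control, 1.79 and 1.83 FPKM in SunTag, and 1.92 and 2.85 FPKM in WT. Nup93 was at 3.19 FPKM in Myod1_active, 1.85 and 2.70 FPKM in Myod1_control, 1.77 and 1.84 FPKM in SunTag, and 2.02 and 1.85 FPKM in WT. Between Myod1_control and SunTag neither passed limma's test (adjusted p = 0.347 for Bbs2 and 0.394 for Nup93).

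The Slc30 transporters of the set did not share the low level. Slc30a1 (ENSMUSG00000037434; chromosome 1, 193730646 to 193737126), which exports zinc at the plasma membrane, had 17.3 FPKM in Myod1_active, 16.7 and 23.3 FPKM in Myod1_control, 5.82 and 9.09 FPKM in SunTag, and 8.32 and 6.81 FPKM in WT. The 3 libraries of the Myod1 experiment lay above the other 4, while Myod1_active lay within the Myod1_control range and the SunTag and WT ranges overlapped. Slc30a1 was higher in Myod1_control than in SunTag (19.98 ± 4.67 against 7.45 ± 2.31 FPKM; SD, n = 2 each; 2.68-fold; log2 difference 1.46 relative to the median gene, 1.32 before that with SE 0.268; limma adjusted p = 0.0313). That call was lost without Myod1_control replicate 1 (adjusted p = 0.0890) or 2 (0.123), SunTag replicate 1 (0.0985), and WT replicate 1 (0.0824) or 2 (0.0836), with no filter on low values (0.0559), and in a fit of the 2 groups alone (0.0876).

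Slc30a10 (ENSMUSG00000026614; chromosome 1, 187278727 to 187292641), a transporter of the same family that carries manganese in hepatocytes, had 7.28 FPKM in Myod1_active, 11.4 and 17.1 FPKM in Myod1_control, 12.5 and 10.8 FPKM in SunTag, and 13.3 and 11.5 FPKM in WT. Myod1_active was the lowest of the 7 libraries, and the other 3 groups overlapped in the order Myod1_control, WT, SunTag. Its difference between Myod1_active and Myod1_control was -1.10 relative to the median gene and did not pass the test (limma adjusted p = 0.218). Between Myod1_control and SunTag it was 0.38 (adjusted p = 0.438), and it was -0.21 when both groups of the Myod1 experiment were set against SunTag and WT. Without Myod1_control replicate 2, the higher control, it was 0.12.

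Of the importers, Slc39a4 (ENSMUSG00000063354; chromosome 15, 76442815 to 76447322), known for zinc uptake in intestine, had 60.6 FPKM in Myod1_active, 58.9 and 50.1 FPKM in Myod1_control, 16.3 and 31.5 FPKM in SunTag, and 28.5 and 37.5 FPKM in WT. All 3 libraries of the Myod1 experiment lay above the other 4, and the SunTag and WT ranges overlapped. Myod1_control averaged 54.5 ± 6.22 FPKM and SunTag 23.9 ± 10.7 FPKM (SD, n = 2 each); the log2 difference, 1.35 above that of the median gene, missed the threshold (limma adjusted p = 0.0584). It passed without SunTag replicate 2 (0.0240), with median-ratio scaling (0.0487), with genes spanning less than 300 bp left out (0.0255), and when both groups of the Myod1 experiment were set against SunTag and WT (0.0418). In 6 of 7 libraries the Slc39a4 value lay above its own deposited interval.

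Slc39a14 (ENSMUSG00000022094; chromosome 14, 70703274 to 70751232), which takes up zinc, iron and manganese in hepatocytes and responds to inflammation, had 81.8 FPKM in Myod1_active, 93.7 and 85.3 FPKM in Myod1_control, 38.8 and 44.5 FPKM in SunTag, and 54.6 and 40.7 FPKM in WT. The 3 libraries of the Myod1 experiment were again the highest, and Myod1_active lay just below its controls. Slc39a14 was higher in Myod1_control, at 89.5 ± 5.94 FPKM, than in SunTag, at 41.7 ± 4.001 FPKM (SD, n = 2 each; 2.15-fold; log2 difference 1.22 relative to the median gene, 1.09 before that with SE 0.188; limma adjusted p = 0.0247). The call was lost without Myod1_control replicate 1 (adjusted p = 0.103) or 2 (0.0971), SunTag replicate 1 (0.0820), and WT replicate 1 (0.0683) or 2 (0.0690), and in a fit of the 2 groups alone (0.0679).

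Slc39a5 (ENSMUSG00000039878; chromosome 10, 127832990 to 127838280), a zinc importer of pancreas, intestine and liver, was near the filter, at 0.366 FPKM in Myod1_active, 0.813 and 0.483 FPKM in Myod1_control, 1.15 and 2.19 FPKM in SunTag, and 0.857 and 1.47 FPKM in WT. The Myod1 experiment held the 3 lowest values, the reverse of Slc39a4 and Slc39a14, and the difference between Myod1_control and SunTag did not pass (-0.54 relative to the median gene; limma adjusted p = 0.131). Its whole span lies within that of Ankrd52; the sources used here do not say how overlapping reads were divided, and these values are uncertain.

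Mtf1 (ENSMUSG00000028890), the zinc-sensing transcription factor, spans 124479348 to 124527044 on chromosome 4 and overlaps 1110065P20Rik, a gene at 20.8 to 31.7 FPKM, by 316 bp. It had 7.15 FPKM in Myod1_active, 3.73 and 4.32 FPKM in Myod1_control, 4.66 and 4.33 FPKM in SunTag, and 5.13 and 4.71 FPKM in WT. Myod1_active was the highest, and the other 6 libraries lay between 3.73 and 5.13 FPKM. Between Myod1_control and SunTag the difference was -0.13, or 0.00 relative to the median gene, and did not pass (limma adjusted p = 0.480), although both control libraries lay below both SunTag libraries. Between Myod1_active and Myod1_control the difference was 0.45 relative to the median gene (adjusted p = 0.165).

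**Figure D2:**
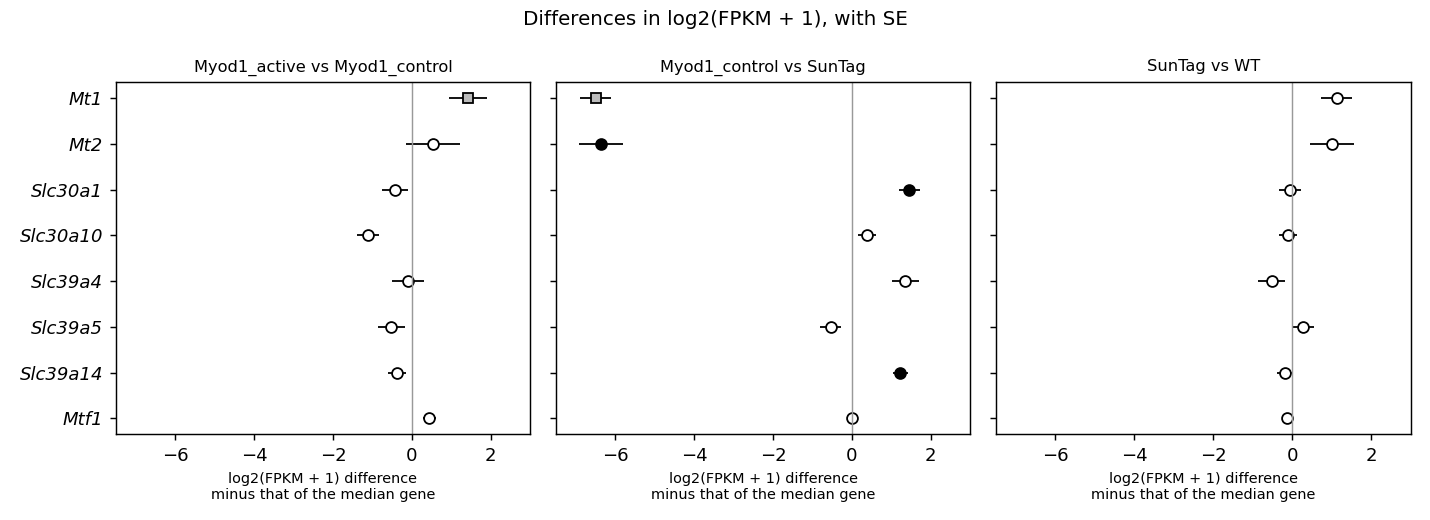
Difference in log2(FPKM + 1) of each gene, minus that of the median gene, with the SE of the limma fit, for Myod1_active against Myod1_control, Myod1_control against SunTag, and SunTag against WT. Filled circles passed the adjusted threshold of 0.05, open circles did not, and grey squares are Mt1 values given without a test. Between SunTag and WT Mt1 is drawn as an open circle but is not counted. Mt2, Slc30a1 and Slc39a14 are the filled circles, all between Myod1_control and SunTag.

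Between Myod1_control and SunTag, limma thus called 3 of the 7 genes other than Mt1, Slc30a1 and Slc39a14 as higher and Mt2 as lower, where 24.3% of the 15744 genes tested were called, 7.3% higher and 17% lower. That split, 1149 higher and 2683 lower, was 1735 and 1846 with median-ratio scaling and 1757 and 1764 with quantile normalization. In 6 of the 7 the groups did not overlap, where 66.6% of all genes did not. Slc39a5 is among these 6 and is not read against that share, and Mtf1 separated by only 0.00598 FPKM. By size, Mt1 had the 9th and Mt2 the 10th lowest difference of 15744 genes. Set as 3 libraries against 4, the Myod1 experiment lay wholly above the SunTag and WT libraries for Slc30a1, Slc39a4 and Slc39a14 and wholly below for Mt1, Mt2 and Slc39a5, with overlap for Slc30a10 and Mtf1. Such separation was found for 42% of all genes tested, 18.4% above and 23.6% below. Mt1 is listed as a description, since its low level in these libraries chose the set. Slc39a5 passed the filter only through SunTag and WT libraries. The places of Mt1 and Slc39a5 are thus not read against that share.

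Between Myod1_active and Myod1_control none of the 7 genes other than Mt1 passed limma's adjusted threshold, and 2, Mtf1 and Slc30a10, had an unadjusted p under 0.05, where 0.254% of all genes passed the adjusted threshold, 0.216% higher and 0.0381% lower, and 19.5% the unadjusted one. In this comparison the median gene shifted by 0.25. Mt2 differed by 0.54 relative to the median gene (SE 0.681; adjusted p = 0.532), with 5.91 FPKM in Myod1_active and 3.10 ± 1.24 FPKM in Myod1_control (SD, n = 2). Mt1 was 3.31 times higher in Myod1_active than the Myod1_control mean, 1.42 on the log2 scale relative to the median gene. The activated group held 1 library, so this arm had no replicate and was assumed to vary like the others. Myod1_active lay between the controls in 1 of the 7 genes, Slc30a1, and stood apart from both in 6 of them, as in 78% of all genes.

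Between SunTag and WT limma called 0 of the 7 genes other than Mt1, where 0.127% of all genes passed, 0.0508% higher and 0.0762% lower. An unadjusted p under 0.05 was found for 0 of the 7, where 1.95% of all genes had one. Mt1, whose values chose the set, is described only. Mt1 averaged 975 ± 26.6 FPKM in SunTag and 461 ± 196 FPKM in WT (SD, n = 2 each), 2.11-fold, and Mt2 359 ± 8.74 FPKM in SunTag and 205 ± 146 FPKM in WT. Both SunTag libraries lay above both WT libraries for each gene, and WT replicate 1 lay above WT replicate 2. Of the 7 genes other than Mt1, 2 had groups without overlap, namely Mt2 and Mtf1, where 25.8% of all genes did. For the 5 transporters and Mtf1, log2 differences relative to the median gene lay between -0.52 and 0.28.

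The wider transporter families include the 5 transporters already described. Of their 15 tested genes outside the set, limma called 2 as higher and 1 as lower between Myod1_control and SunTag, where 24.3% of all genes were called. Of the 10 Slc30 genes 7 were tested, and between Myod1_control and SunTag limma called 1 of them, Slc30a1, as higher and 0 as lower (median difference 0.30 relative to the median gene). Slc30a9, Slc30a1, Slc30a10 and Slc30a5 had the highest mean levels of the family. Slc30a9 had 22.5 FPKM in Myod1_active, 12.9 and 13.2 FPKM in Myod1_control, 14.0 and 13.5 FPKM in SunTag, and 15.6 and 12.5 FPKM in WT, and Slc30a5 lay between 7.601 and 10.4 FPKM in all 7 libraries. Summed over the family, the level was 69.5 FPKM in Myod1_active, 59.2 and 70.3 FPKM in Myod1_control, 52.6 and 51.2 FPKM in SunTag, and 55.3 and 47.8 FPKM in WT.

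Of the 14 Slc39 genes 13 were tested. Between Myod1_control and SunTag limma called 3 as higher, Slc39a11, Slc39a13 and Slc39a14, and 1 as lower, Slc39a8 (median difference 0.40 relative to the median gene). Over all genes tested 24.3% were called, 7.3% higher and 17% lower. Of the 13, Slc39a2 and Slc39a5 passed the filter only through SunTag and WT libraries, and Slc39a6 and Slc39a10 only through the Myod1 experiment. None of these genes was called. Slc39a11 had 31.9 FPKM in Myod1_active, 18.1 and 16.5 FPKM in Myod1_control, 6.57 and 7.36 FPKM in SunTag, and 8.70 and 8.82 FPKM in WT (log2 difference 1.33 relative to the median gene for Myod1_control against SunTag, adjusted p = 0.0157). Slc39a13, a zinc transporter of the secretory pathway, had 24.8 FPKM in Myod1_active, 10.6 and 12.2 FPKM in Myod1_control, 5.64 and 5.03 FPKM in SunTag, and 7.18 and 7.19 FPKM in WT (1.105, adjusted p = 0.0191). In both genes Myod1_active was the highest library and the groups followed the same order. Both values are uncertain, since the span of Slc39a13 overlaps that of the proteasome gene Psmc3 by 4579 bp and the span of Slc39a11 that of Cog1 by 911 bp. The span of Slc39a11 also overlaps those of Sstr2 by 6664 bp, Gm16487 by 4038 bp and AL596212.1, at 0 to 13.4 FPKM, by 89 bp. Slc39a13 lay above its own deposited interval in 2 libraries, Myod1_active and Myod1_control replicate 2 (12.2 FPKM, upper bound 10.8).

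Slc39a8, which imports zinc and manganese, was the 1 importer called lower, with 8.33 FPKM in Myod1_active, 7.53 and 6.75 FPKM in Myod1_control, 12.4 and 10.7 FPKM in SunTag, and 11.5 and 9.72 FPKM in WT (-0.49, adjusted p = 0.0435). Each of these 3 calls was lost without either Myod1_control or either WT library (adjusted p between 0.0683 and 0.150) and in a fit of the 2 groups alone (0.0679 to 0.0966); that of Slc39a8 was also lost without either SunTag library (0.137 and 0.0562), with median-ratio scaling (0.0715), with quantile normalization (0.0508) and with no filter on low values (0.0654). Slc39a14, Slc39a7, Slc39a4 and Slc39a1 had the highest mean levels; Slc39a7, which releases zinc from the endoplasmic reticulum, lay between 41.7 and 67.2 FPKM, and Slc39a1, at the plasma membrane, between 22.3 and 36.3 FPKM, above its own deposited interval in every library. Summed over the family, the level was 337 FPKM in Myod1_active, 295 and 274 FPKM in Myod1_control, 163 and 198 FPKM in SunTag, and 210 and 207 FPKM in WT. Neither family had a call between Myod1_active and Myod1_control or between SunTag and WT in limma's test; at an unadjusted p under 0.05, 3 of the 15 genes outside the set passed between Myod1_active and Myod1_control, where 19.5% of all genes did, and 1 passed between SunTag and WT, where 1.95% did.

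**Figure D3:**
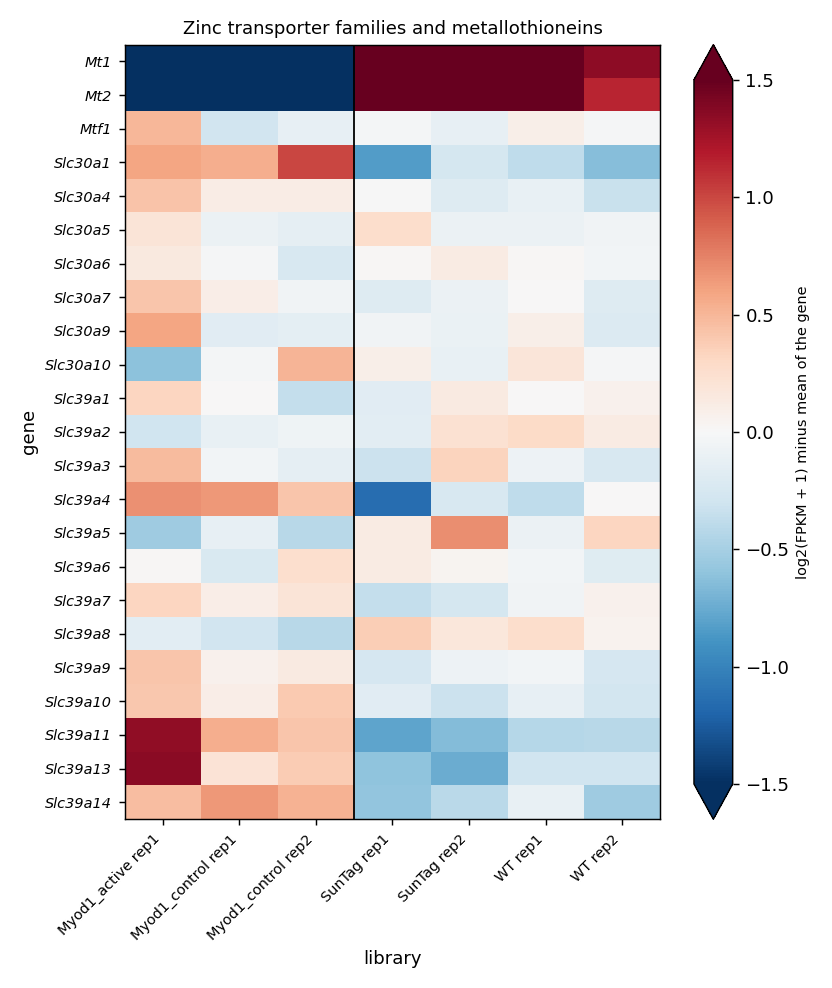
Levels of the tested Slc30 and Slc39 genes, Mt1, Mt2 and Mtf1 (rows) in each library (columns), as log2(FPKM + 1) minus the mean of the gene over the 7 libraries; red is above the mean, blue below, and colours saturate at 1.5. The line separates the Myod1 experiment from the SunTag and WT libraries; Mt1 and Mt2 are beyond the colour range on the left, and Slc39a11, Slc39a13, Slc39a14 and Slc30a1 are red there.

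Copper handling, the other duty of metallothioneins, was followed with 15 listed genes, all of them tested. Between Myod1_control and SunTag 1 was higher, the copper exporter Atp7b, and 3 were lower, the copper chaperones Atox1 and Cox17 and the superoxide dismutase Sod1 (median difference -0.07 relative to the median gene). Among 16 listed genes induced by glucocorticoids, 3 were higher and 5 lower (median -0.65), and among 22 acute phase genes 2 were higher and 7 lower (median -0.48). Over all genes tested 24.3% were called in this comparison, 7.3% higher and 17% lower. The part of these lists in the low metallothionein level was not tested.

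The contrast between Myod1_control and SunTag also separates experiments, and the libraries differed in sex markers and in the RNA of other cells. Xist, the transcript of the inactive X chromosome in females, was at 0.00420 FPKM in Myod1_active, 0.324 and 0.0322 FPKM in Myod1_control, 56.9 to 76.1 FPKM in SunTag and 66.1 to 82.2 FPKM in WT, while 4 Y-linked genes were higher in Myod1_control than in SunTag in limma's test. Experiment and sex therefore cannot be told apart from the group in that contrast. Of 9 tested blood cell markers 7 were lower and 1 higher in Myod1_control than in SunTag, and the summed level of the list was 39.6 FPKM in Myod1_active, 41.3 to 46.4 FPKM in Myod1_control, 2319 to 3850 FPKM in SunTag and 1389 to 1412 FPKM in WT. Of 9 Kupffer cell markers 8 were lower (summed level 68.8 FPKM in Myod1_active, 67.1 to 72.8 FPKM in Myod1_control, 366 to 594 FPKM in SunTag and 340.5 to 434 FPKM in WT), of 10 endothelial markers 9 (41.5, 61.0 to 62.1, 203 to 213 and 195 to 208 FPKM in the same order of groups) and of 9 stellate cell markers 4 (28.7, 22.5 to 33.4, 79.8 to 142 and 79.4 to 79.6 FPKM). None of these markers was at 0 in all libraries. Of 6 tested cholangiocyte markers 1 was higher, Sox9, and 1 lower, Krt7. The summed level of their list was 80.1 FPKM in Myod1_active, 17.4 and 53.1 FPKM in Myod1_control, 21.9 and 32.8 FPKM in SunTag, and 30.2 and 38.2 FPKM in WT. All these counts stand beside 17% of all genes called lower and 7.3% called higher. In bulk tissue fewer cells of a type and less RNA per cell cannot be told apart, and the part of these cells in the metallothionein levels was not tested. The 12 hepatocyte markers were all expressed. Their summed level was 65087 FPKM in Myod1_active, 71624 and 75138 FPKM in Myod1_control, 88294 to 92580 FPKM in SunTag and 93797 to 105417 FPKM in WT. Between Myod1_control and SunTag limma called 1 of them higher, Cps1, and 0 lower, with 5 above and 7 below the median gene. The FPKM total over all genes was itself lower in the Myod1 experiment, at 1.25e+06 to 1.36e+06 against 1.55e+06 to 1.93e+06 in SunTag and WT. The sums given here are not scaled to it. Genes spanning less than 300 bp made up 40.1% to 45.1% of that total in the Myod1 experiment and 48.7% to 57.1% in SunTag and WT. Of 11 pancreatic acinar markers with a row 9 stayed under 1 FPKM in every library, Cpa1 and Cpb1 at 0, and of 10 intestinal markers 7 did, Sis, Alpi, Cdx1 and Reg3g at 0.

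**Figure D4:**
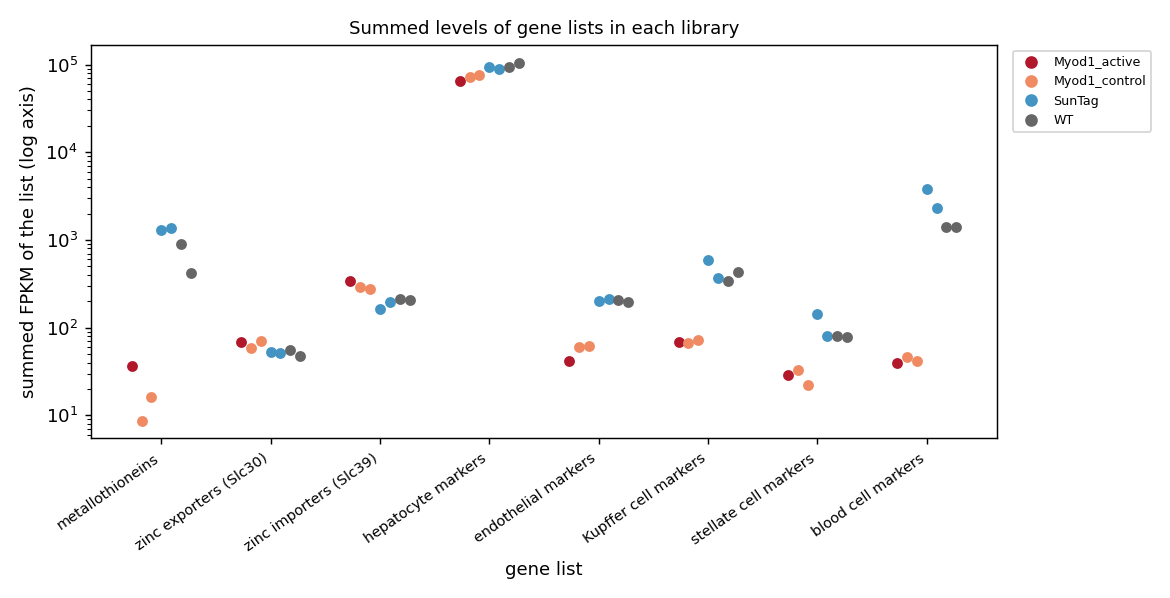
Summed FPKM of the metallothioneins, the 2 zinc transporter families and the hepatocyte, endothelial, Kupffer, stellate and blood cell marker lists in each library, on a log vertical axis. Cholangiocyte markers are not drawn. Metallothioneins and blood cell, Kupffer cell, endothelial and stellate cell markers lie lower in the 3 libraries of the Myod1 experiment than in the other 4. So do the hepatocyte markers, by less, at 65087 to 75138 FPKM against 88294 to 105417 FPKM. The FPKM total over all genes was also lower in those 3 libraries, and the sums are not scaled to it.

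The genes closest to Mt1 in pattern were sought among 11035 other named genes spanning at least 300 bp, by the root mean square difference between centred log2(FPKM + 1) profiles over the 7 libraries. Mt2 came first, at 0.36 log2 units, for profiles whose own root mean square size was 2.82 for Mt1 and 2.90 for Mt2. Next were Srsf2.1 (0.50), Slc22a26 (0.65), an organic anion transporter of liver, Cyp17a1 (0.73), a steroid hydroxylase, and Xist (0.88). The same 4 genes followed Mt1 in the list for Mt2. Cyp17a1 had 9.47 FPKM in Myod1_active, 3.24 and 4.04 FPKM in Myod1_control, 123 and 171 FPKM in SunTag, and 245 and 157 FPKM in WT, so that it was lowest in Myod1_control, as were Mt1 and Mt2. Xist, in contrast, was lowest in Myod1_active. These profiles share the libraries and, with Xist among them, the division between the experiments.

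**Figure D5:**
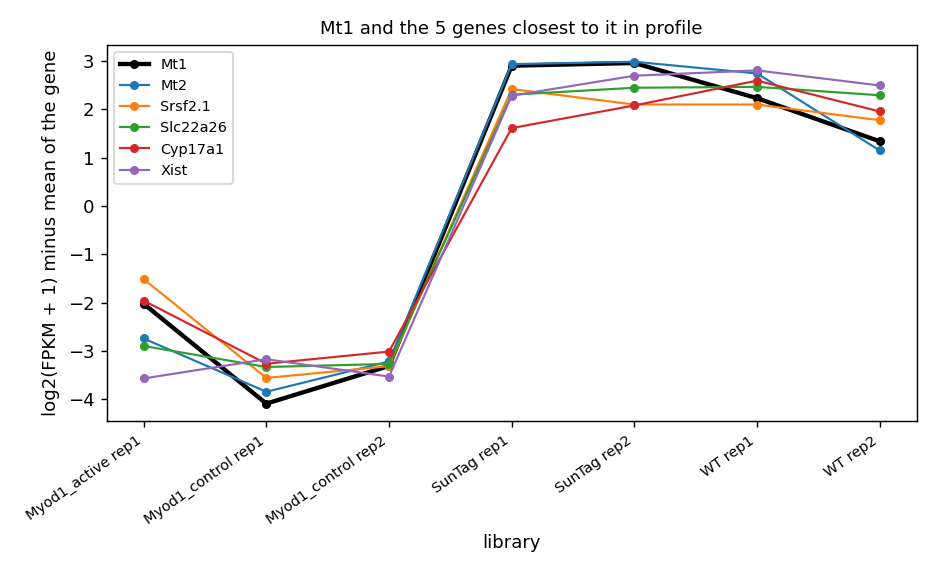
Profiles of Mt1 and of the 5 genes closest to it, as log2(FPKM + 1) minus the mean of each gene, across the 7 libraries. All 6 lie below their mean in the 3 libraries of the Myod1 experiment and above it in the SunTag and WT libraries. The Mt1, Mt2, Srsf2.1 and Slc22a26 lines have their lowest SunTag or WT point in WT replicate 2, and those of Cyp17a1 and Xist in SunTag replicate 1.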

How the data were processed

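Liver RNA was isolated with the Direct-zol RNA MiniPrep kit before Illumina library preparation, as the labels' protocols state. The submitters' processing notes name cutadapt 1.11, TopHat2 2.1.1, Cufflinks 2.2.1 and the mm9 build; the sources used here do not give their settings, the annotation or the use of strand. The authors deposited FPKM per gene with lower and upper bounds, 37468 rows per library, per the file headers. Read totals were unknown; from the width of the bounds, relative depth ran from 0.943 to 1.09 of the geometric mean.

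Rows with a status other than OK in any library (343) were left out and rows of 1 symbol summed (244 symbols). Genes reaching an FPKM of 1 in at least 1 library (15744) entered limma 3.58.1 (R 4.3.3) on the log2(FPKM + 1) scale; the model had a mean for each group, used all 7 libraries and had a variance trend (3 residual and 1.93 prior degrees of freedom), two-sided p-values adjusted by Benjamini-Hochberg over all genes, and a threshold of 0.05. The same code was tested on simulated data. SE and p belong to differences before the shift of the median gene was taken off. The members and lists were chosen with earlier results of these data known. The named genes were the 8 of the set, family genes past the threshold or among the 4 highest of a family, and the 5 closest to Mt1 and to Mt2 in profile. Motifs were searched in RefSeq promoters (GRCm38.p6), where 6 of the 8 genes had one. No 2 tables shared more than 1 identical value above 0. Alternatives were other pseudocounts (0.1 and 5), filters and scalings, each library left out, the 2 groups alone, genes under 300 bp left out, and a replicate block. For Myod1_control against SunTag a further alternative set both groups of the Myod1 experiment against SunTag and WT.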

Additional observations from a re-analysis of the deposited data

How the results depend on the processing

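Between Myod1_control and SunTag, Mt1 and Mt2 lay below the median gene under all 17 alternatives, by -6.87 to -5.21 for Mt1 and -6.69 to -5.43 for Mt2. Of the 17, 1 set both groups of the Myod1 experiment against SunTag and WT, and the -5.21 of Mt1 came from it. For Mt1, whose low level chose the set, these values are a description only. The 3 calls among the 7 genes other than Mt1 became 1, Mt2, in a fit of the 2 groups alone, and 0 to 4 when 1 library was left out. The count over all genes, 3832, was 48 in a fit of the 2 groups alone and 58 to 4070 with 1 library left out; it was 127 without Myod1_control replicate 1, 126 without replicate 2, 59 without WT replicate 1, 58 without WT replicate 2 and 918 without SunTag replicate 1. Between Myod1_active and Myod1_control 0 of the 7 were called under each of the 15 alternatives that gave a value, and the count over all genes, 40, was 23 with a pseudocount of 0.1, 253 with no filter on low values, 20 with genes under 300 bp left out, 0 in a fit of these 3 libraries alone and 49 to 119 with 1 library left out. Leaving out the single Myod1_active library gave no value there. Between SunTag and WT 0 of the 7 genes other than Mt1 were called under each of 16 alternatives. The count over all genes there, 20, was 5 with genes under 300 bp left out and 23 to 79 with 1 library left out. The cause of these changes was not tested.

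With the replicate number as a block, the 3 calls of Mt2 (adjusted p = 0.0350), Slc30a1 (0.0458) and Slc39a14 (0.0412) between Myod1_control and SunTag were kept, and over all genes 2876 were called there, 23 between Myod1_active and Myod1_control and 15 between SunTag and WT. The differences between replicates 1 and 2 correlated over genes with r of 0.000757 between Myod1_control and SunTag, 0.0341 between Myod1_control and WT, and 0.0425 between SunTag and WT, so the numbers were not treated as pairs. Among the genes of the set with small differences, the sign relative to the median gene turned under some alternatives, in no case with a call. Between SunTag and WT it turned for Slc30a1 (2 of 16) and Slc39a5 (1 of 16), and between Myod1_control and SunTag for Mtf1 (6 of 17). For Slc30a10 it turned in 1 of 17, the alternative that set both groups of the Myod1 experiment against SunTag and WT. Between Myod1_active and Myod1_control it turned for Slc39a4 (4 of 15). Counts behind each value were unknown, which limits what can be said of genes near 1 FPKM such as Slc39a5.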
